A study of Homo sapiens with 6 samples.

Results

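The 10 genes described here encode the Gq signalling axis and its brakes: the G protein α subunits GNAQ and GNA11, the phospholipase C enzymes PLCB1, PLCB3, PLCB4 and PLCG1, the regulators of G protein signalling RGS2, RGS4 and RGS16, and the protein kinase C gene PRKCA. They were taken by name and NCBI Gene ID, and all 10 were found among the 16623 genes of the files. Their expression was read in MDA-MB-231 cells, a mesenchymal triple-negative breast cancer line, grown as adherent cultures with DMSO or with PCI-24781, a histone deacetylase (HDAC) inhibitor. The libraries were DMSO 24 h, 100 nM 24 h, 200 nM 24 h, DMSO 48 h, 100 nM 48 h and 200 nM 48 h, with 1 library for each, with no genetic change named in the labels and no concentration given for DMSO. They are called early (24 h) or late (48 h) and low dose (100 nM) or high dose (200 nM) here. With 1 library for each condition, no difference between a pair of libraries has a replicate check, a p-value or a standard deviation.

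When a receptor activates Gαq or Gα11, the GTP-bound subunit switches on phospholipase C β, which cleaves a membrane phosphoinositide into inositol trisphosphate and diacylglycerol. Inositol trisphosphate opens calcium channels of the endoplasmic reticulum, and diacylglycerol with calcium activates protein kinase C α. RGS proteins speed GTP hydrolysis by Gα subunits and so shorten the signal, and RGS2 acts with preference on Gαq. Phospholipase C γ1 makes the same products downstream of receptor tyrosine kinases.

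The deposited unit was FPKM, the fragments of a gene scaled by its length and by the size of the library, so that levels of different genes can be set side by side. Depth was worked out from the spacing of small values in short genes and came to between 16300000 and 18850000 fragments per library. These are approximate values, and every interval given below covers counting error only. VIM, CD44, AXL and KRT18, which this line is known to express, lay at an FPKM of 89 or above in all libraries, while ESR1 and PGR were at or below 0.04 and CDH1 at or below 0.39. ERBB2, placed on the list as a low marker, lay between 13.2 and 21.4. A change was calculated as the difference in log2(FPKM + 1), and a change of 2-fold or more was called in genes whose higher level was an FPKM of 1 or more. Both drug libraries of a time share its DMSO library. By that minimum 8 of the 10 genes could be called in each comparison, and PLCB4 and RGS16 could not.

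On the log2(FPKM + 1) scale, none of the 10 genes reached 2-fold against DMSO of the same time at either dose or time. RGS2 and RGS4 moved farthest in 3 of the 4 comparisons with the drug. The added 1 lowers the change of low genes, and the plain FPKM ratio of RGS4 was 3.34 at the early low dose and 2.68 at the early high dose. Over all genes that met the minimum, the shares higher and lower by 2-fold were 1.35% and 0.131% at the early low dose, 4.47% and 1.48% at the early high dose, 0.0608% and 0.408% at the late low dose, and 0.206% and 0.06% at the late high dose. Between late DMSO and early DMSO these shares were 2.49% and 0.131%, and again 0 of the 10 genes were called. With so few genes called in general, a count of 0 among 8 is close to the background. The median change of the 10 genes was -0.03 at the early low dose, 0.01 at the early high dose, -0.01 at both doses at the late time and -0.09 between the DMSO libraries, against medians from -0.01 to 0.01 over all tested genes.

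A fit over all 6 libraries with dose and time as terms was added after the values were seen. It takes the response to a dose to be the same at both times and leaves 2 residual degrees of freedom. At the low dose the changes of RGS2 were 0.70 at the early and -0.35 at the late time, and those of RGS4 0.83 and -0.41. The fit counts such a difference between times as residual spread, which widens the intervals of these genes. It therefore cannot decide whether either gene changed at the early time alone or at the late time alone. By limma with Benjamini-Hochberg adjustment over 11893 genes, 0 of 8 genes passed an adjusted p of 0.05 at either dose, as did 0% of all tested genes. At an unadjusted p of 0.05, 0 of 8 passed at either dose, beside 27 of all tested genes at the low dose and 1780 at the high dose. In this fit RGS2 had a change of 0.63 at the high dose (95% interval -0.03 to 1.28, limma adjusted p = 0.34) and of 0.17 at the low dose (-0.48 to 0.83, adjusted p = 1.0). RGS4 had 0.59 at the high dose (-0.17 to 1.36, limma adjusted p = 0.395) and 0.21 at the low dose (-0.55 to 0.97, adjusted p = 1.0).

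At a change of 1.5-fold, RGS2 and RGS4 passed at the early low dose and the early high dose, and RGS2 alone passed at the late high dose. That is 2 of 8 genes at each dose at the early time and 1 of 8 at the late high dose, beside 6.8%, 20.1% and 1.99% of all tested genes in either direction. At the late low dose, where 2.26% of tested genes passed, and between the DMSO libraries, where 10.4% did, the count was 0. At the early time RGS4 met the minimum only through the treated libraries. With the mean of both DMSO libraries as the reference, neither gene passed 1.5-fold at the early time, with changes of 0.47 and 0.38 for RGS2 and of 0.55 and 0.36 for RGS4 at the low and the high dose, and both passed at the late high dose, with 0.88 and 0.83. With median-of-ratios factors RGS2 had 0.54 at the early high dose and did not pass.

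**Figure D1:**
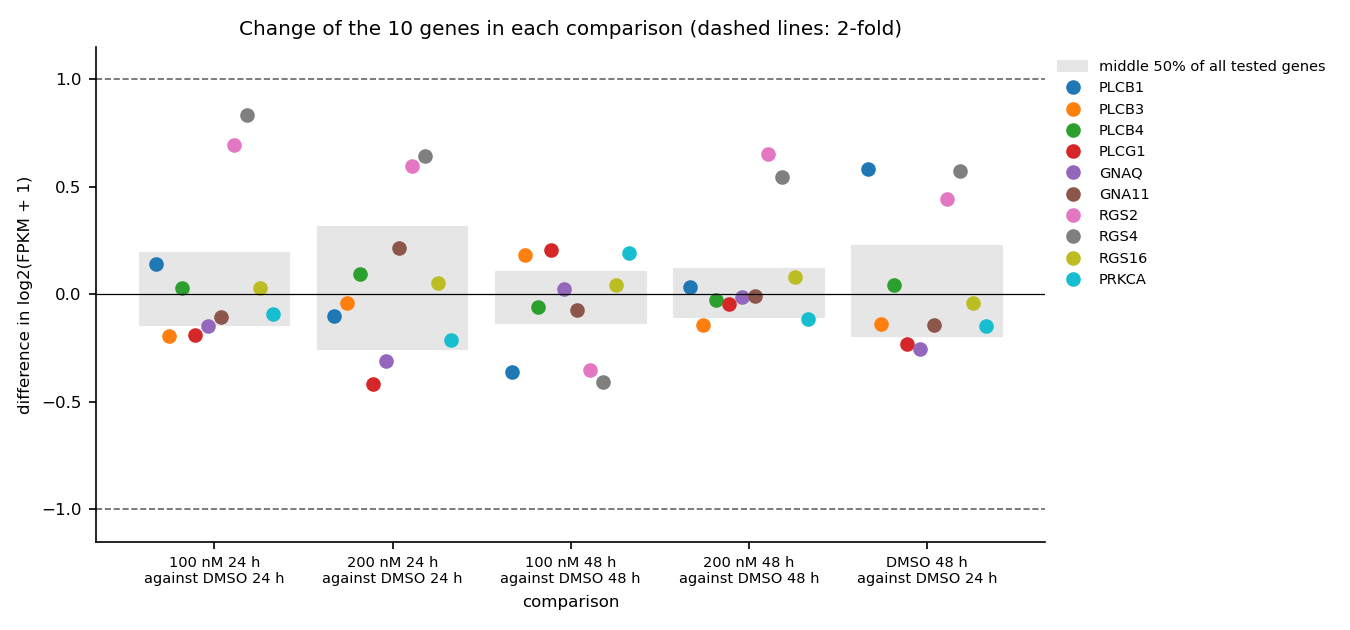
Difference in log2(FPKM + 1) of each of the 10 genes (points) in the 4 comparisons of PCI-24781 with DMSO of the same time and in late DMSO against early DMSO. Grey boxes span the middle 50% of all tested genes and dashed lines mark 2-fold on this scale, on which the added 1 lowers the change of low genes. RGS2 and RGS4 lie above the box at the early low dose, the early high dose and the late high dose and below it at the late low dose, and no point reaches a dashed line.

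RGS2 (NCBI Gene ID 5997) occupies bases 192778169 to 192781407 of chromosome 1, on the plus strand, in the coordinates of the files, for which the labels name the build hg19. Its FPKM was 4.70 in early DMSO, 8.23 at the early low dose and 7.62 at the early high dose. At the late time it was 6.75 in DMSO, 5.08 at the low dose and 11.19 at the high dose. The lowest level was thus that of early DMSO and the highest that of the late high dose, while the late low dose lay below its own DMSO library. Behind these values stood about 116 fragments in early DMSO and about 240 at the late high dose, on a transcript of 1354 bases.

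The RGS2 ratio to DMSO of the same time was 1.75 at the early low dose, with an exact 95% binomial interval of 1.39 to 2.23. It was 1.62 (1.28 to 2.07) at the early high dose, 0.753 (0.588 to 0.951) at the late low dose and 1.66 (1.35 to 2.04) at the late high dose. None of these intervals holds 1, so that depth does not limit the differences between these libraries, but the spread between cultures is unknown. Among the 10 genes this was not particular to RGS2. The interval excluded 1 for 8, 7, 6 and 4 of them in the same order, and for 8 between late and early DMSO. The 7 include PLCB4, with about 1.1 fragments in early DMSO and 8.1 at the early high dose. The share of all genes whose interval excluded 1 was not taken. The DMSO libraries themselves differed in RGS2, with a ratio of 1.44 (1.13 to 1.85) for late over early. On the log2(FPKM + 1) scale the changes were 0.70, 0.60, -0.35 and 0.65, and 0.44 between the DMSO libraries. Of all tested genes, 3.83% rose as far as RGS2 or farther at the early low dose, 12.3% at the early high dose and 1.14% at the late high dose, and 5.98% fell as far at the late low dose. PECAM1, a marker of endothelium, was also higher than DMSO at the early low dose, the early high dose and the late high dose and lower at the late low dose, with an FPKM of 0.38, 0.64 and 1.25 at the early time and of 1.52, 1.07 and 2.33 at the late time. PTPRC lay between 0.76 and 1.01 and MYH11 at or below 0.15, and the part of other cells in the RGS2 values was not tested. In bulk RNA, a change in the share of cells with a transcript and a change in its amount per cell cannot be told apart.

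RGS4 (NCBI Gene ID 5999, chromosome 1, bases 163038396 to 163046592), which acts on Gαi and Gαq, was expressed at a far lower level than RGS2. Its FPKM was 0.50 in early DMSO, 1.67 at the early low dose and 1.34 at the early high dose, and 1.23, 0.68 and 2.26 in the same order at the late time. The order of the 6 libraries was the same as for RGS2, from early DMSO through the late low dose, late DMSO, the early high dose and the early low dose to the late high dose. Of the neighbours in this order, early DMSO and the late low dose differed in neither gene beyond counting error, with ratios of the higher to the lower of 1.08 (0.832 to 1.404) for RGS2 and 1.36 (0.769 to 2.447) for RGS4. The same held for late DMSO and the early high dose, with 1.129 (0.906 to 1.4) and 1.089 (0.742 to 1.592). The late high dose over the early low dose was 1.36 (1.123 to 1.655) for RGS2 and 1.353 (0.985 to 1.866) for RGS4. The early low dose and the early high dose differed in neither gene beyond counting error, with ratios of high over low dose of 0.926 (0.751 to 1.14) for RGS2 and 0.802 (0.562 to 1.146) for RGS4. The RGS4 ratio to DMSO was 3.34 (2.09 to 5.65) and 2.68 (1.655 to 4.61) at the lower and higher dose at the early time, and 0.553 (0.339 to 0.859) and 1.84 (1.297 to 2.6) at the late time. Its change on the log2(FPKM + 1) scale was 0.83 at the early low dose, because the added 1 understates the ratio of a gene at such a level. With 0.1 added in place of 1, RGS4 was called at both doses at the early time and between the DMSO libraries. In these comparisons it met the minimum only through the library other than early DMSO. The share of all tested genes called with 0.1 added was not taken, so these calls have no background beside them.

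**Figure D2:**
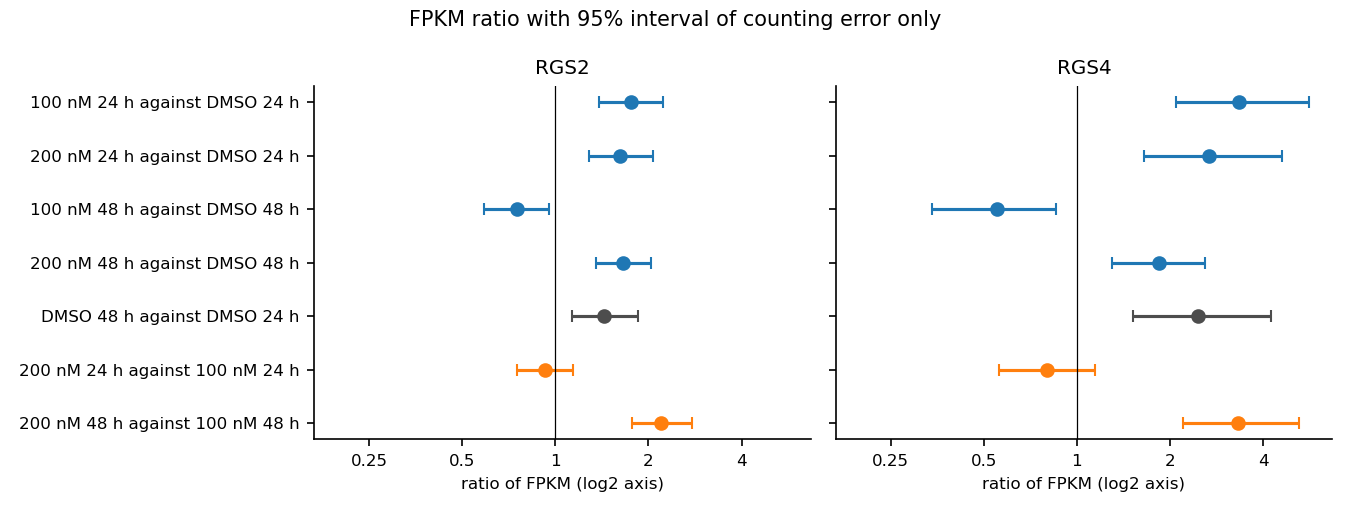
Ratio of FPKM of RGS2 (left) and RGS4 (right) on a log2 axis, with exact 95% binomial intervals from the inferred fragments, which cover counting error only. Blue points compare PCI-24781 with DMSO of the same time, the grey point compares the DMSO libraries, and orange points compare the high with the low dose. In both genes the ratio lies below 1 at the late low dose and above 1 in the other comparisons with DMSO.

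RGS16 (NCBI Gene ID 6004, chromosome 1, bases 182567758 to 182573548), a regulator of Gαi and Gαq, stayed between 0.02 and 0.09 in all 6 libraries. These levels correspond to between 0.9 and 3.9 fragments, and 3 fragments on its transcript correspond to an FPKM of 0.077 in the shallowest library. A difference in RGS16 was not detectable at this depth.

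The step from the low to the high dose was examined after the values were seen. At the late time the RGS2 level was 2.20 times as high at the high dose as at the low dose (1.78 to 2.77), a change of 1.004 that placed it among the 1.71% of all tested genes higher by 2-fold in this comparison. It was the 1 of 8 genes called there, and it fell to 0.96, under the threshold, when the libraries were rescaled by median-of-ratios factors. RGS4 was 3.32 times as high (2.21 to 5.23), a change of 0.96.

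Since RGS2 and RGS4 followed the same order across libraries and RGS16 stayed near 0, the 250 bases before the transcription start of the 3 genes are shown from RefSeq (GRCh38.p14, all on the sense strand of the gene). For RGS4, which has 4 start sites in the table, the window is that of the start at 163069361, the position in GENCODE of a transcript that the files list. Capitals mark matches on either strand to the TATA box, spelled TATAAA, the CCAAT box, spelled by its name, the GC box, spelled GGGCGG, the cAMP response element, spelled TGACGTCA, the core of that element, spelled ACGTCA and contained in the full one, and the AP-1 site, spelled TGANTCA. The windows lie at chr1:192808789-192809038 for RGS2 and chr1:163069111-163069360 for RGS4, both on the plus strand, and at chr1:182604390-182604639 on the minus strand for RGS16.
RGS2: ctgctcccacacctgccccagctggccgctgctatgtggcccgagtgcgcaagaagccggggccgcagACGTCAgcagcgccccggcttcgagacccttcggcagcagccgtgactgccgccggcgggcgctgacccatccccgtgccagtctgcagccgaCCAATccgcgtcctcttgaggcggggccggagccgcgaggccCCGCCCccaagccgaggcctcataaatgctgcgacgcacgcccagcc
RGS4: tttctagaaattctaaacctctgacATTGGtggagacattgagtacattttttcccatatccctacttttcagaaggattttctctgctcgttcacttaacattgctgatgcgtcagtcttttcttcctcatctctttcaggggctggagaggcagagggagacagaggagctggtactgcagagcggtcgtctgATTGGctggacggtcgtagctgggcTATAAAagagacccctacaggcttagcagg
RGS16: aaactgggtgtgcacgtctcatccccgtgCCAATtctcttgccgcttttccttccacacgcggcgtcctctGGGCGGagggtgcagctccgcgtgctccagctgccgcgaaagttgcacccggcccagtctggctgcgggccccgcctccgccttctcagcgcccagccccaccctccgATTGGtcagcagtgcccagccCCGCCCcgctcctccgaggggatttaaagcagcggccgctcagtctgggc

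The RGS2 window held 1 CCAAT box at positions -89 to -85 from the start, 1 GC box at -47 to -42 and 1 cAMP response element core at -182 to -177. The RGS4 window held a TATA box at -30 to -25 and 2 CCAAT boxes, and the RGS16 window 2 CCAAT boxes and 2 GC boxes. Of 34788 windows of this length in the table, 10.8% held the TATA box, 32.0% the CCAAT box, 42.6% the GC box, 1.6% the full cAMP response element, 7.1% its core and 6.6% the AP-1 site. No match to the full element or to the AP-1 site was found in the 3 windows. Their GC content was 72.8% for RGS2, 47.6% for RGS4 and 68.4% for RGS16, beside a median of 58.0%, and they held 28, 6 and 22 CpG dinucleotides, beside a median of 11. RGS2 and RGS4, which followed the same order, therefore differed in base composition at the start. Only the CCAAT box was found in both of their windows, and the RGS16 window held it as well. The order of the libraries was not particular to this pair, since TLR4, TMTC2, EDNRB and CHRM3, named below, had the same order. The windows of these other genes were not read.

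The G protein α subunits differed less between libraries than RGS2 and RGS4 did, though in part beyond counting error. GNAQ (NCBI Gene ID 2776, chromosome 9, bases 80331190 to 80646365, minus strand), which encodes Gαq, had an FPKM of 16.20 in early DMSO, 14.53 at the early low dose and 12.89 at the early high dose. At the late time it was 13.40, 13.67 and 13.30 in DMSO, the low dose and the high dose. The level was thus highest in early DMSO and lowest at the early high dose, and the 3 libraries of the late time lay close together. The changes were -0.15 and -0.31 at the early time and 0.03 and -0.01 at the late time, the last of which was 0.01 after rescaling to TPM. The ratio to DMSO was 0.897 (0.840 to 0.957) at the early low dose and 0.796 (0.743 to 0.851) at the early high dose, while the intervals at the late time held 1. Of all tested genes, 24.4% and 21.3% fell as far or farther at the early low dose and the early high dose. Late DMSO lay 0.26 below early DMSO on the same scale. With the mean of both DMSO libraries as the reference, the changes of GNAQ were -0.02 and -0.18 at the early time and -0.10 and -0.14 at the late time.

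GNA11 (NCBI Gene ID 2767, chromosome 19, bases 3094408 to 3124000), which encodes the closely related Gα11, was the more abundant of the pair in all 6 libraries. Its FPKM was 37.17, 34.48 and 43.38 in DMSO, low dose and high dose at the early time, and 33.53, 31.79 and 33.34 at the late time. Only the early high dose stood above DMSO of its time, with a change of 0.22, which 31.6% of tested genes equalled or passed. The ratio of GNA11 to GNAQ, which does not depend on the scaling of a library, was 3.37 at the early high dose and between 2.29 and 2.51 in the other 5 libraries. The summed level of both subunits ranged from 45.46 at the late low dose to 56.27 at the early high dose.

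Since RGS2 acts on Gαq, its level was also taken per GNAQ within each library. The ratio of FPKM was 0.29 in early DMSO, 0.566 at the low dose and 0.591 at the high dose, and 0.504, 0.372 and 0.841 at the late time in the same order. Per GNAQ, both treated libraries at the early time and the high-dose library at the late time were thus higher than DMSO of the same time, and the low-dose library at the late time was lower. Per summed FPKM of GNAQ and GNA11, RGS2 had 0.0881, 0.1679 and 0.1354 at the early time in DMSO, low dose and high dose. At the late time it had 0.1438, 0.1117 and 0.2399. The directions against DMSO were the same. By this measure the early high dose lay below the early low dose and below late DMSO, unlike the order per GNAQ. RGS2 remained less abundant than GNAQ in all 6 libraries.

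**Figure D3:**
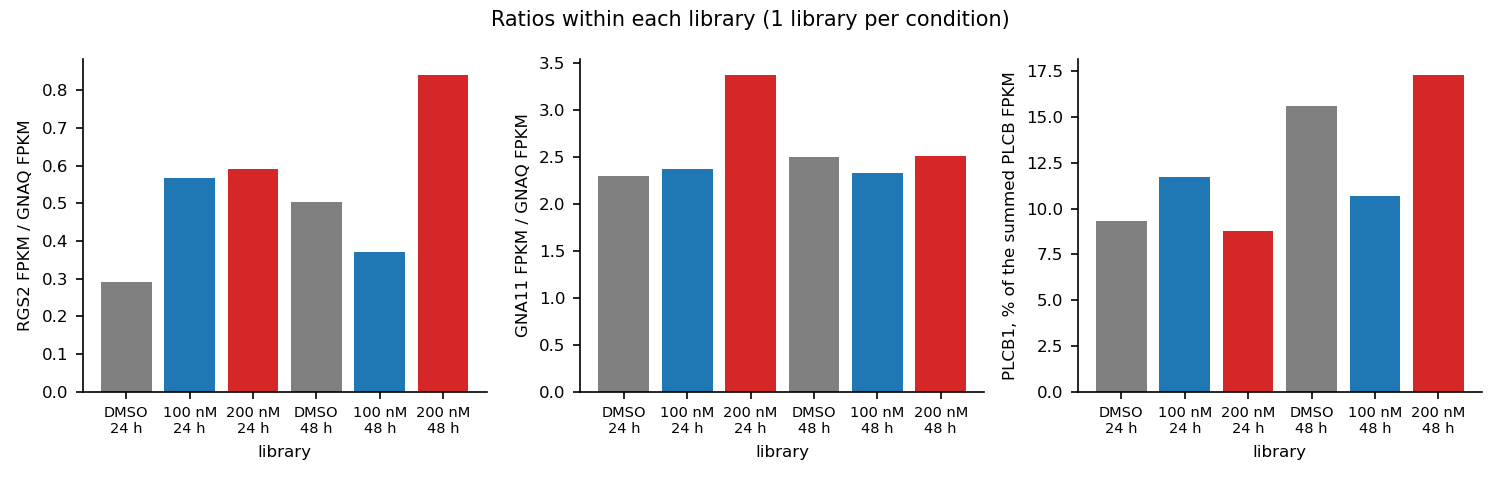
Ratios within each library: FPKM of RGS2 over GNAQ (left), FPKM of GNA11 over GNAQ (middle) and the percentage of the summed FPKM of PLCB1, PLCB2, PLCB3 and PLCB4 that PLCB1 took (right). Each bar is 1 library, with grey for DMSO, blue for low dose and red for high dose. RGS2 per GNAQ ranges from 0.29 in early DMSO to 0.841 at the late high dose.

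Among the phospholipase C genes, PLCB3 (NCBI Gene ID 5331, chromosome 11, bases 64018995 to 64036924) was the most abundant. Its FPKM was 35.45, 30.91 and 34.45 in DMSO, low dose and high dose at the early time, and 32.17, 36.71 and 29.03 at the late time. The low-dose library was the lowest of its time at the early time and the highest at the late time, and the largest level was 36.71. The changes were -0.19 and -0.04 at the early time and 0.19 and -0.14 at the late time, within 0.2 of 0 in each comparison. At the late high dose the ratio was 0.902 (0.850 to 0.957), and 18.9% of tested genes fell as far or farther. At the early high dose the direction turned, to 0.03, when the mean of both DMSO libraries was the reference.

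PLCB1 (NCBI Gene ID 23236, chromosome 20, bases 8112912 to 8865547) differed more between the DMSO libraries than between drug and DMSO. It had an FPKM of 3.66, 4.14 and 3.35 at the early time and of 5.97, 4.43 and 6.14 at the late time in DMSO, low dose and high dose. Late DMSO was 1.63 times early DMSO (1.46 to 1.83), a change of 0.58 that 8.62% of tested genes equalled or passed. At the late low dose the change was -0.36, and 5.70% of tested genes lay as far below DMSO or farther, while at the late high dose the change was 0.03. At the early time the changes were 0.14 and -0.10, and the first was -0.15 against the mean of both DMSO libraries. PLCB1 made up between 8.8% and 11.7% of the summed PLCB level at the early time, and 15.6%, 10.7% and 17.3% at the late time in DMSO, low dose and high dose. PLCB3 made up between 81.9% and 90.3%.

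PLCB4 (NCBI Gene ID 5332, chromosome 20, bases 9049701 to 9461463) was listed at 0 at the late low dose and reached 0.08 at the early high dose, about 8.1 fragments. In the other libraries it had at most about 4.1 fragments, so that it was at or near the limit of 3 fragments in 5 of 6 libraries. No change was read from these values.

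PLCG1 (NCBI Gene ID 5335, chromosome 20, bases 39766161 to 39804357) had an FPKM of 17.66, 15.39 and 12.98 in DMSO, low dose and high dose at the early time, and of 14.91, 17.33 and 14.44 at the late time. At the early time the level was lower at each higher dose, with changes of -0.19 and -0.42, and 19.3% and 14.5% of tested genes fell as far or farther. At the late time the changes were 0.20 and -0.04, so that the order of the doses was not the same at the later time.

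PRKCA (NCBI Gene ID 5578, chromosome 17, bases 64298926 to 64806862), the kinase that calcium and diacylglycerol activate, had the highest level of the 10 genes. Its FPKM was 56.89, 53.40 and 48.90 in DMSO, low dose and high dose at the early time, and 51.31, 58.78 and 47.30 at the late time. At each time the high-dose library had the lowest level. The changes were -0.09, -0.21, 0.19 and -0.12 at the early low dose, the early high dose, the late low dose and the late high dose. Between 12.02% and 33.2% of tested genes moved as far or farther in the same direction.

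**Figure D4:**
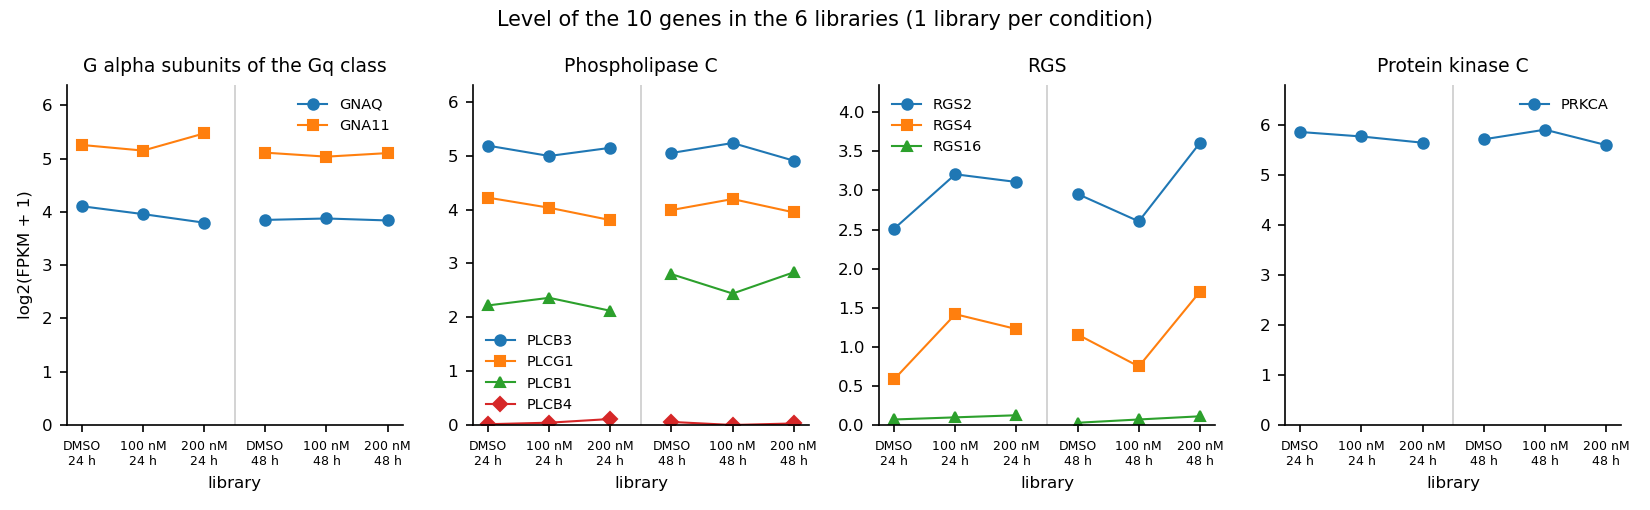
Level of the 10 genes as log2(FPKM + 1) in each of the 6 libraries, in 4 panels by family, with lines joining the libraries of 1 time. PRKCA, GNA11 and PLCB3 are the highest. RGS2 and RGS4 rise from DMSO to both doses at the early time and dip at the late low dose, while PLCB4 and RGS16 lie near 0.

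Across the 6 libraries, RGS4 had a Pearson correlation of 0.99 with RGS2 on the log2(FPKM + 1) scale. PLCB3 had -0.90, PRKCA -0.88, PLCG1 -0.73 and GNAQ -0.55, while RGS16 had 0.54, PLCB1 0.47, PLCB4 0.36 and GNA11 0.01. These 6 points share doses, times and DMSO libraries and are given as a description. The share of all genes with correlations as strong was not taken, and the values of RGS16 and PLCB4 rest on few fragments. Of the 4658 genes that reached an FPKM of 1 in all libraries and ranged over 0.5 or more on that scale, the 5 most like RGS2 were TLR4, MAOA, ABCG2, USP53 and TMTC2, with correlations between 0.98 and 0.99. TLR4, a receptor of innate immunity, had 5.79, 10.78 and 10.02 at the early time and 9.02, 7.29 and 13.92 at the late time in DMSO, low dose and high dose. MAOA, which encodes monoamine oxidase A, had 6.13, 8.38, 8.40, 7.57, 6.63 and 9.40 in the same order.

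Other genes of the pathway were read from 10 lists holding 132 genes, of which 123 were found. Of the 81 to 87 found genes that met the minimum, 5 were called higher at the early low dose, 5 at the early high dose, 0 at the late low dose and 1 at the late high dose, and 3 between the DMSO libraries. The shares of all tested genes called higher were 1.35%, 4.47%, 0.0608%, 0.206% and 2.49% in the same order. The only call in the lower direction was 1 gene at the late low dose, where 0.408% of all tested genes were called lower. The medians over the 123 genes were 0.05, 0.14, -0.01, 0.04 and 0.05 in that order.

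The other RGS genes included the largest change of this family. RGS9 (NCBI Gene ID 8787), known from photoreceptors and striatal neurons, had an FPKM of 1.01 in early DMSO, 6.08 at the low dose and 8.15 at the high dose, and of 6.58, 3.86 and 9.20 at the late time. Of 13 found RGS genes 8 met the minimum at the early time, and RGS9 was the 1 called at each dose, with changes of 1.82 and 2.19. It was also called between the DMSO libraries, with 1.92. The shares of all tested genes called higher were 1.35% and 4.47% at the early low and high dose and 2.49% between the DMSO libraries. At the late time the changes of RGS9 were -0.64 and 0.43, the same signs as those of RGS2 and RGS4. The median of the 13 genes was 0.06, 0.22, -0.01 and 0.05 at the early low dose, the early high dose, the late low dose and the late high dose.

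Of 11 other phospholipase C genes, 6 met the minimum at the early high dose and 1 was called there, beside 4.47% of all tested genes. It was PLCD1 (NCBI Gene ID 5333), a δ isoform, with an FPKM of 4.19, 7.32 and 14.31 at the early time and of 8.53, 8.27 and 11.09 at the late time in DMSO, low dose and high dose. Its changes were 0.68 and 1.56 at the early time and -0.04 and 0.34 at the late time, and it was 0.88 higher in late than in early DMSO. Of 16 other G protein α and β subunit genes, 0 were called in any comparison, and their median was between -0.03 and 0.07. Over all tested genes, the shares called in these comparisons ran from 0.0608% to 4.47% higher and from 0.06% to 1.48% lower.

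Of 33 receptor genes that can couple to Gq, 16 met the minimum at the early time, of which 3 were called at the low dose and 2 at the high dose, all higher, beside 1.35% and 4.47% of all tested genes. Between the DMSO libraries 2 were called higher, F2RL2 with 1.42 and ADRA1B with 1.27, beside 2.49% of all tested genes. F2RL2 (NCBI Gene ID 2151), which encodes a protease-activated receptor that binds thrombin, had an FPKM of 2.37, 12.78 and 18.95 at the early time and of 8.01, 2.71 and 17.89 at the late time. Its changes were 2.03, 2.57, -1.28 and 1.07, and it was the only listed gene called in all 4 comparisons with the drug, in the lower direction at the late low dose. ADRA1B (NCBI Gene ID 147), the α1B adrenergic receptor, changed by 1.02 and 1.45 at the early time and had -0.69 and 0.43 at the late time. EDNRB (NCBI Gene ID 1910), the endothelin B receptor, changed by 1.003 at the early low dose and had 0.95 at the early high dose, just under the threshold.

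F2R and CHRM3, receptors of the agonists thrombin and carbachol that the study used, were below the threshold. F2R (NCBI Gene ID 2149), a thrombin receptor, had an FPKM of 26.33, 37.30 and 49.20 at the early time and of 34.82, 34.56 and 52.26 at the late time. Its changes were 0.49 and 0.88 at the early time and -0.01 and 0.57 at the late time. CHRM3 (NCBI Gene ID 1131), a muscarinic receptor, had an FPKM between 1.65 and 3.08, with changes of 0.58, 0.48, -0.18 and 0.15.

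**Figure D5:**
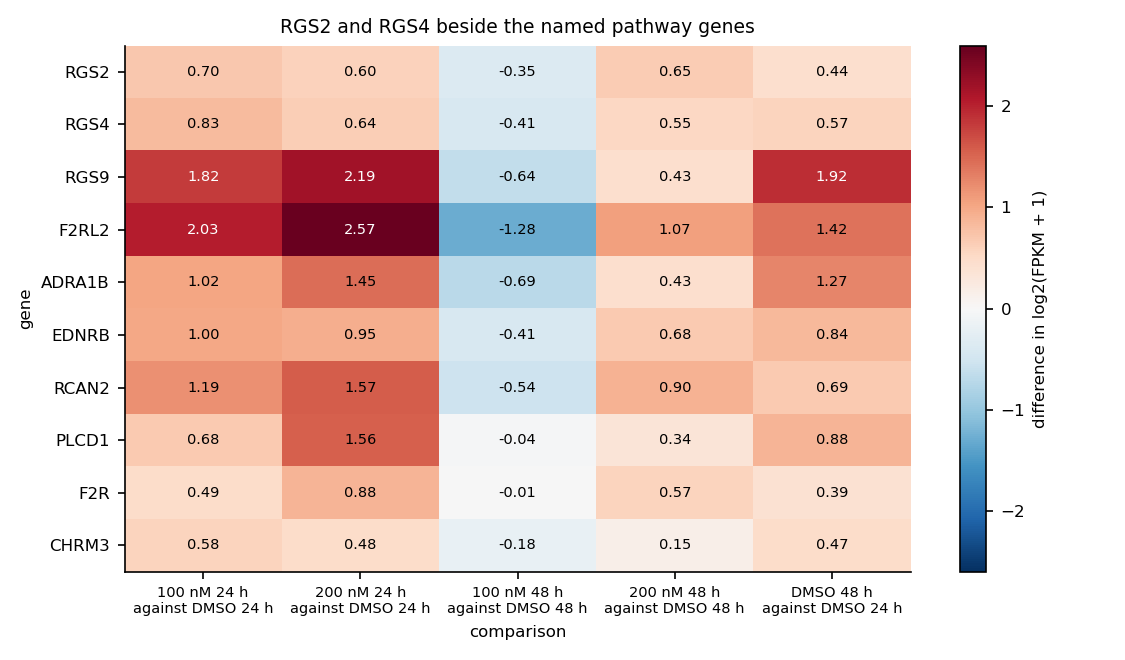
Difference in log2(FPKM + 1) of RGS2, RGS4 and the 8 named pathway genes (rows) in the 5 comparisons (columns), with red for higher, blue for lower and the value in each cell. All 10 rows are positive at both doses at the early time and at the late high dose and negative at the late low dose, where F2R and PLCD1 lie within 0.04 of 0. RGS9, F2RL2, ADRA1B, EDNRB, RCAN2 and PLCD1 are shown because they were called in at least 1 of these comparisons, so that the shared signs are a description.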

How the data were processed

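RNA of MDA-MB-231 cells was sequenced in 6 libraries. The deposited values are FPKM per gene, made by the authors and rounded to 2 decimals. The labels' processing notes name Bowtie2, RSEM and the build hg19, without versions, and the methods name mRNA enrichment or rRNA depletion. Samples were grouped by title. Symbols were matched by NCBI Gene ID to RefSeq (GRCh38.p14), which held 16585 of 16623 genes. The members and lists were chosen with earlier results of these data known. Of the 10 pathway lists, 1 is not reported on its own here.

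Changes were differences in log2(FPKM + 1). Each comparison ran across all genes whose higher level was an FPKM of 1 or more, a gene was called at 2-fold, and no test was run between pairs of single libraries. A fit of log2(FPKM + 1) with dose and time as terms (limma 3.58.1 in R 4.3.3, trended variance) was added after the values were seen, over genes with an FPKM of 1 or more in any library. No count test was run, since the files hold no counts. The named genes were the 10 members, listed pathway genes called in at least 1 of 5 comparisons, F2R and CHRM3, and the 5 genes most correlated with RGS2. Depth per library (16300000 to 18850000 fragments) was fitted to the spacing of small values in 1372 genes that list a single transcript of 500 to 1500 bases in GENCODE, with transcript length reduced by a fitted 40 bases. Fragments per gene used the mean length of its listed transcripts. The other settings tried were TPM, median-of-ratios factors, pseudocounts of 0.1 and 0.01, a 1.5-fold threshold, the mean of both DMSO libraries as reference, and a minimum either dropped or required of both libraries. The step from 100 nM to 200 nM at 48 h was added after the values were seen. Calls, depths and this fit were tested on simulated data. Python 3.11.15, numpy 2.4.6, pandas 2.3.3, scipy 1.17.1 and matplotlib 3.10.9 were used.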

Additional observations from a re-analysis of the deposited data

Results flagged for a closer look

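The changes at the low dose had opposite signs at the early and the late time, each beyond the counting interval, for 6 of the 10 genes and 5 of the named pathway genes. The change at the late time minus that at the early time, on the log2(FPKM + 1) scale, was -1.05 for RGS2, -1.24 for RGS4 and -0.50 for PLCB1, which were higher than DMSO at the early time and lower at the late time. It was 0.38 for PLCB3, 0.39 for PLCG1 and 0.28 for PRKCA, which were lower at the early time and higher at the late time. It was -2.46 for RGS9, -3.31 for F2RL2, -1.71 for ADRA1B, -1.41 for EDNRB and -1.72 for RCAN2. These differences were not tested, since each time has 1 library per dose. The share of all genes with such opposite signs was not taken, and the 5 pathway genes were named because they were called. Over all tested genes at the low dose, 1.35% were higher and 0.131% lower by 2-fold at the early time. At the late time 0.0608% were higher and 0.408% lower. At the high dose, no gene of either group had opposite signs beyond the counting interval. The direction of PLCB1 at the early low dose turned when the mean of both DMSO libraries was the reference.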

How the results depend on the processing

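The labels give no replicate numbers, so that libraries could not be paired by replicate, and leaving out a library removes its comparisons. In the fit with dose and time as terms, and in one with both doses as 1 drug group, which left 3 residual degrees of freedom, limma gave 0 of 8 genes past an adjusted p of 0.05. In the latter 0 of 8 passed an unadjusted p of 0.05, beside 1.85% of all tested genes, and RGS2 had 0.40 (95% interval -0.27 to 1.06, limma adjusted p = 0.768). That fit, too, takes the response to be the same at both times. A count was taken to have moved at over 1.5 times and a median at over 0.1. For the 10 genes, the count called was 1 in place of 0 at the early low dose, at the early high dose and between the DMSO libraries with pseudocounts of 0.1 and 0.01, and 1 at the early low dose with TPM. At 1.5-fold it was 2 at each dose at the early time and 1 at the late high dose. For the high against the low dose at the late time, a comparison added after the values were seen, it was 2 in place of 1 with either pseudocount, TPM or 1.5-fold, and 0 with median-of-ratios factors, and the median was 0.17 and 0.27 with pseudocounts of 0.1 and 0.01, against 0.03. The median at the early high dose was -0.10 over the 7 genes that met the minimum in both of its libraries. For the other pathway genes, at the early low dose 3 were called with median-of-ratios factors and 9 at 1.5-fold, in place of 5. At the early high dose, in place of 5, 12 were called with either pseudocount, 11 with TPM and 23 at 1.5-fold. At the late low dose, in place of 1, 2 were called with either pseudocount and 4 at 1.5-fold. At the late high dose, in place of 1, 2 were called with either pseudocount or TPM and 3 at 1.5-fold. Between the DMSO libraries, in place of 3, 8 were called with either pseudocount, 6 with TPM and 10 at 1.5-fold. Over all tested genes, 6.8%, 20.1%, 2.26%, 1.99% and 10.4% passed 1.5-fold in either direction in the same order of comparisons. Shares of all genes called with the pseudocounts, TPM or median-of-ratios factors were not taken, so that these counts cannot be set against a background. A smaller pseudocount by construction widens changes of low genes. TPM raises all values, so that the pseudocount weighs less and more genes meet the minimum (97 in place of 85 pathway genes at the early high dose), and these were not separated. The cause of the lower counts with median-of-ratios factors was not tested. A single value was taken to have moved when it lay outside the counting interval of the main ratio and over 0.1 from the main change. Large shifts of low genes, whose intervals are wide, can thus count as not moved. RGS4 at the early low dose, with 0.83 in the main setting and 1.72 with a pseudocount of 0.01, did not count as moved. Of 280 single values, 19 moved by this rule and 5 changed sign, and no sign changed for RGS2 or RGS4. A different pseudocount alone cannot change a sign, so the values with pseudocounts of 0.1 and 0.01 could not have shown such a change. The median of all tested genes stayed within 0.05 of 0 under every setting. The RGS2 change ranged from 0.47 to 0.81 at the early low dose, 0.38 to 0.70 at the early high dose, -0.41 to -0.13 at the late low dose and 0.64 to 0.88 at the late high dose. For RGS4, of which 3 values moved, it ranged from 0.55 to 1.72, 0.36 to 1.40, -0.85 to -0.12 and 0.54 to 0.87 in the same order.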

Other observations

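The remaining lists covered the steps after phospholipase C. Of 12 calcineurin and protein kinase C readout genes, 11 met the minimum at the early time and 1 was called higher at each dose, beside 1.35% and 4.47% of all tested genes at the low and the high dose. It was RCAN2 (NCBI Gene ID 10231), which encodes a regulator of the calcium-dependent phosphatase calcineurin, with an FPKM of 0.26, 1.87 and 2.73 in DMSO, low dose and high dose at the early time and of 1.03, 0.40 and 2.79 at the late time. At the early time it met the minimum only through the treated libraries. Its changes were 1.19 and 1.57 at the early time and -0.54 and 0.90 at the late time. The median of the 12 genes was 0.14, 0.20, -0.07 and 0.01 at the early low dose, the early high dose, the late low dose and the late high dose.

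In the lists of 9 other protein kinase C and D genes, 10 inositol trisphosphate receptors and inositol phosphate enzymes, 9 diacylglycerol kinases and 7 receptor kinases and Gα chaperones, 0 genes were called in the 5 comparisons. Over all tested genes, the shares called ran from 0.0608% to 4.47% higher and from 0.06% to 1.48% lower. At the early high dose the medians of these lists were 0.10, 0.12, 0.01 and 0.33, beside 0.01 over all tested genes, and at the late high dose they were 0.02, -0.04, 0.04 and -0.01.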
